A study of Sus scrofa with 24 samples.

Results

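The solute carriers are the membrane proteins that move small molecules and ions across the cell surface and the membranes of organelles, and the genes described here are those whose symbol in the array annotation is SLC or SLCO followed by a digit, with SLC2A4 left out. By this rule 215 genes were members, among the 10882 genes with a symbol of their own on the array. The rule uses the name and no measured value. A gene with several transcript clusters, the array's units of measurement, was represented by its brightest cluster. RefSeq lists 365 pig symbols of this form, SLC2A4 included, and those with no cluster carrying that symbol alone were not analysed here. Both SLC9A3R1 and SLC9A3R2 share the name but are adaptor proteins that bind the tails of carriers, and are not carriers themselves.

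The tissue was the oxyntic mucosa, the acid-secreting lining of the stomach, of 24 piglets of a (Great York x Pietrain) x 'Dalland' cross. All had been delivered by caesarean section, given pasteurized sow colostrum and a starter of Lactobacillus amylovorus, Clostridium glycolicum and Parabacteroides, and were 3 weeks of age. The 4 groups held 6 piglets each: CA MCT (diluted faeces of an adult sow after the starter, and a diet with medium-chain triglycerides from coconut oil), CA CON (the same faeces and a control diet with soy and palm oil), SA MCT (a placebo after the starter, and the medium-chain diet) and SA CON (placebo and control diet). CA stands for complex and SA for simple microbial association. The labels place the associations in separate rooms, in which case room and association cannot be told apart, while the methods can be read as piglets of each group in every pen or room. Neither names the room, litter, sex or pen of a piglet. The comparisons asked whether the microbial association, the diet or both together changed the carriers of the gastric lining.

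Solute carriers use gradients of ions or of the substrate itself rather than ATP, and are grouped into families by sequence and by what they carry. In the parietal cells, the acid-secreting cells of the gland, the proton pump sends acid to the lumen while anion exchangers on the other side of the cell return bicarbonate to the blood and bring in chloride. Other members supply sugars, amino acids, choline, vitamins and metals to the epithelium, load the mitochondria, or carry nucleotide sugars into the Golgi apparatus, where mucins are glycosylated.

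The values were array intensities, and log2 was taken for all comparisons. The median intensity per array was 23.13 to 26.44. Pig 4 (CA CON), pig 10 (CA MCT) and pig 22 (SA MCT) stood apart, with median correlations with the other arrays of 0.946, 0.975 and 0.981, against 0.987 to 0.992 for the other piglets. Pig 4 had the highest or the lowest value of its group for 156 of the 215 members (72.6%). The parietal markers ATP4A and ATP4B and the chief cell markers PGA5 and PGC were bright, with means of 3555, 2668, 4202 and 2316. Of the 7 measured intestinal markers, CDX1, CDX2, FABP2, SI and APOA4 had means of 4.07 to 11.1, but VIL1 had 176 and the goblet cell mucin MUC2 91.8, with 13.2 to 335.5 over the piglets. Of the 4 pancreatic markers, CPA1 had 239.6 and the others 4.68 to 15.4. The gastrin gene GAST of the antrum had 41.4, close to the median of all genes (38.2), and KRT5 of squamous epithelium 10.8.

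The signal of the members covered nearly the whole range of the array. Of the 215 members, 101 had a mean intensity above the median of all genes (38.2), 24 were above the 90th percentile (304.8), and 54 were below the 25th percentile (10.6). Intensity depends on the probes as well as on the RNA, so signals are given per gene and do not rank transcripts against each other. As a description of the array signal, 10 of the 16 metal ion carriers, 17 of the 27 nucleoside and nucleotide sugar carriers and 17 of the 26 mitochondrial carriers were above the median of all genes. So were 12 of the 34 acid-base and inorganic ion carriers, 5 of the 17 organic ion carriers and 3 of the 9 vesicular transmitter carriers. The classes followed the gene family and not always the substrate of each member. The sodium-iodide symporter SLC5A5 was thus counted with the sugar carriers of family SLC5. The measured SLC13 genes, SLC13A2, SLC13A3 and SLC13A5 among them, were all counted with the acid-base and inorganic ion carriers.

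**Figure D1:**
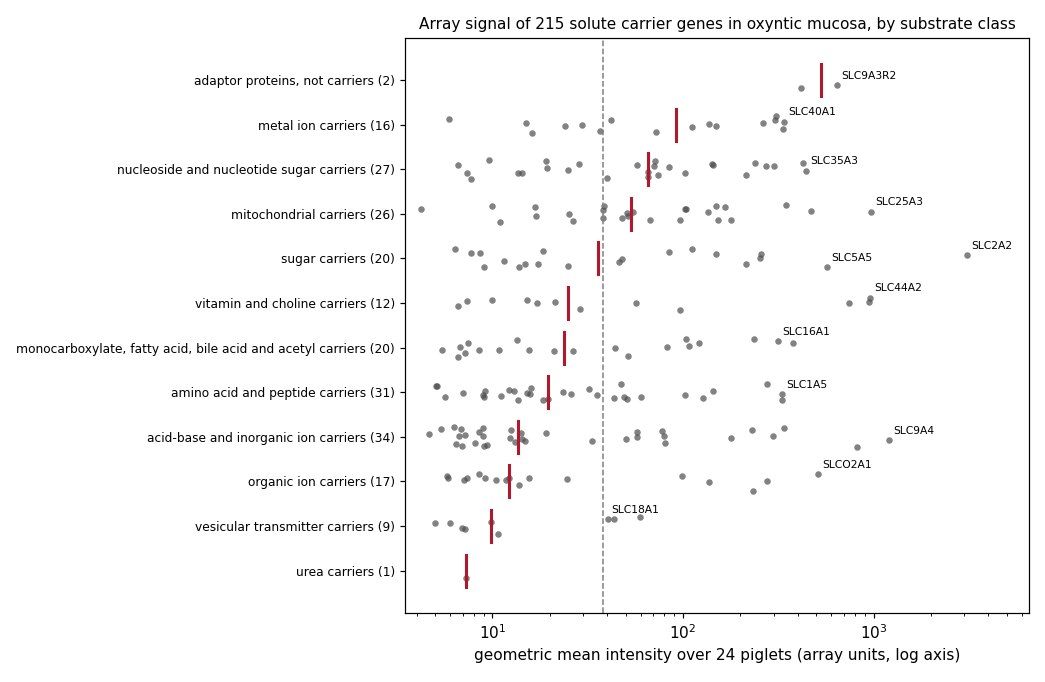
Geometric mean intensity over 24 piglets of each of the 215 solute carrier genes (1 point per gene, array units on a log axis), by substrate class with the number of genes in brackets. Red bars are class medians and the dashed line is the median of all 10882 genes (38.2). The acid-base and inorganic ion carriers held both dim members around their median of 13.6 and some of the brightest, with SLC9A4 at 1210.

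Among the carriers tied to acid secretion, the gastric sodium-proton exchanger SLC9A4 had 1097 to 1379 intensity units (median 1217) in CA MCT piglets, 1151 to 1319 (1274) in CA CON piglets, 1055 to 1285 (1164) in SA MCT piglets and 910.3 to 1305 (1251) in SA CON piglets. The 4 groups overlapped throughout. The related exchanger SLC9A2 had 675.4 to 934.8 units over all piglets. The anion exchanger SLC26A7 of parietal cells had 157 to 324 units, and the sodium-bicarbonate cotransporter SLC4A4 had 268 to 458. SLC26A6, an exchanger of chloride, bicarbonate and oxalate, had 64.5 to 102.6. Of the 13 carriers listed for acid secretion and gastric iodide uptake, only these 5 and SLC5A5 had a cluster carrying their symbol alone. The anion exchanger SLC4A2 had no such cluster and was not analysed here. The paper reports SLC4A2 as enriched in CA as compared to SA piglets of this age, within its set of oxyntic mucosa genes. The values here therefore do not cover all carriers of acid secretion.

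The brightest member was SLC2A2, the glucose carrier GLUT2 best known from liver, intestine and pancreatic beta cells. It had 2871 to 3737 units (median 3207) in CA MCT piglets, 2337 to 3608 (3292) in CA CON piglets, 2174 to 3627 (3096) in SA MCT piglets and 2779 to 3716 (3182) in SA CON piglets. SLC2A2 had a second, dimmer cluster with a mean of 563, and the log2 values of the pair correlated at only 0.32 over the 24 piglets (r, as a description). The level of this gene therefore rests on 1 of 2 clusters that did not move together. The sodium-glucose cotransporter SLC5A1, which takes up sugar at the luminal side of the intestine, had 20.2 to 76.0 units.

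The choline carrier-like genes SLC44A2, SLC44A4 and SLC44A1 were also among the 10 brightest members, with mean intensities of 954.8, 944.7 and 742.3. So were SLC25A3, which brings phosphate into the mitochondria (mean 972.9, 799.9 to 1065 over all piglets), the prostaglandin carrier SLCO2A1 (512, 416 to 684), the adaptor SLC9A3R2 (645) and the iodide carrier SLC5A5 (571.5). SLC25A3 was also one of the steadiest, with a within-group SD of 0.09 on the log2 scale. In contrast SLC5A5 ran from 249.9 to 916.6 units with a within-group SD of 0.53, and the other 9 had SDs of 0.09 to 0.2.

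The iron exporter ferroportin, SLC40A1, had 260.0 to 421.8 units, and the zinc and iron carrier SLC39A14 had 253 to 436. The monocarboxylate carrier SLC16A1, which moves lactate, short-chain fatty acids and ketone bodies, had 251 to 417, and the neutral amino acid carrier SLC1A5 had 261 to 415. In these 4 genes the highest piglet was within 2 times the lowest. SLC22A3, a carrier of organic cations that takes up monoamines, had 147 to 293 units, whereas SLC18A1, one of the vesicular monoamine carriers of endocrine cells, had 30.1 to 54.1. The peptide carrier SLC15A1, characteristic of the small intestine, was dim at 9.04 to 15.3.

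The spread between piglets of a group was much the same in the members as in all genes, with a median within-group SD of 0.204 against 0.2 on the log2 scale. The 10 most variable members were SLC35F1 (0.53), SLC5A5 (0.53), the intestinal zinc carrier SLC39A4 (0.5), SLC5A1 (0.45), the small neutral amino acid carrier SLC7A10 (0.45), SLC25A43 (0.44), the neutral amino acid carrier SLC1A4 (0.44), the nucleoside carrier SLC28A2 (0.42), the sodium-proton exchanger SLC9B1 (0.4) and SLC35F2 (0.4). SLC35F1 and SLC35F2 belong to the nucleotide sugar carrier family by sequence. SLC35F1 owed part of its spread to 1 SA CON piglet at 45.7 units, with the next of that group at 18.4. For SLC25A43, of the mitochondrial carrier family, pig 4 had 22.8 units with the next CA CON piglet at 58.0, and pig 22 had 41.1 with the next SA MCT piglet at 75.4.

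As compared to SA piglets, CA piglets over both diets had no member at an adjusted p under 0.05 (limma, Benjamini-Hochberg over the 10882 genes), and neither did any other gene (0% of all genes). The lowest adjusted p of a member was 0.94 and that of any gene 0.3. At an unadjusted p under 0.05, 2 members were higher in CA (all genes 1.76%) and 5 were lower (all genes 2.37%). The shares of the members, 0.93% and 2.33%, did not exceed that background. The 95% interval of the difference lay within 0.5 on the log2 scale on either side of 0 for 210 of the 215 members (97.7%), without adjustment for the number of genes. Neither this count nor the later counts of intervals were computed over all genes. The intervals bound the difference of array signal and not that of the RNA, and 54 of the members were in the lowest quartile of signal. The median difference of the members was 0.00, as it was in all genes.

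Of the members nearest to a call, SLC22A2, an organic cation carrier mainly of the kidney, had 8.44 to 10.2 units (median 8.73) in CA MCT piglets, 8.11 to 13.7 (8.5) in CA CON piglets, 6.56 to 8.84 (8.17) in SA MCT piglets and 6.77 to 8.88 (8.26) in SA CON piglets. Its values were low on the array in all groups and the highest was that of pig 4. The difference of CA and SA was 0.21 ± 0.08 (log2, SE; adjusted p = 0.94 by limma), and 0.11 without pigs 4, 10 and 22. SLC23A1, which takes up ascorbate, lay the other way, with 18.2 to 24.2 units (median 20.5) in CA MCT, 15.5 to 21.7 (18.9) in CA CON, 17.6 to 26.9 (23.1) in SA MCT and 17.9 to 37.8 (22.1) in SA CON piglets. The CA and SA piglets overlapped, with a difference of -0.25 ± 0.10 (adjusted p = 0.94 by limma) that was the same, -0.25, without those 3 piglets.

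SLC35A3 carries UDP-N-acetylglucosamine into the Golgi apparatus. It had 391.7 to 439.0 units (median 413) in CA MCT piglets, 345 to 515 (429) in CA CON piglets, 413 to 517 (490.2) in SA MCT piglets and 373 to 564 (455) in SA CON piglets. The CA MCT and SA MCT piglets overlapped, with the lowest SA MCT piglet, at 413, close to the CA MCT median. The difference of CA and SA was -0.15 ± 0.07 over both diets and -0.20 ± 0.09 within MCT (adjusted p = 0.94 and 0.9998 by limma). SLC9A3R1, the adaptor that anchors sodium-proton exchanger 3 in the brush border, had a difference of -0.19 ± 0.08 and SLC39A14 one of -0.15 ± 0.07. The anion exchanger SLC4A1 of red cells had 0.16 ± 0.07.

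Within the control diet, CA piglets had no member at an adjusted p under 0.05 (all genes 0%), with 2 higher at an unadjusted p under 0.05 (all genes 1.92%) and 5 lower (all genes 2.33%). The widest difference was that of SLC35F2, with 8.73 to 25.8 units (median 24.6) in CA CON piglets and 22.7 to 39.5 (29.1) in SA CON piglets. Its lowest CA CON value was that of pig 4, with the next at 19.7. The difference was -0.54 ± 0.21 (0.687-fold; adjusted p = 0.94 by limma), and -0.30 without pigs 4, 10 and 22. SLC22A3 had 147 to 259 units (median 206) in CA CON piglets and 221 to 286 (255) in SA CON piglets, which gave -0.32 ± 0.12. The riboflavin carrier SLC52A3 had 14.2 to 18.3 units (median 16.3) in CA CON piglets and 16.8 to 23.9 (20.9) in SA CON piglets, a difference of -0.32 ± 0.13. In both genes the groups overlapped in part, and without pigs 4, 10 and 22 the values were -0.35 and -0.33. SLC12A1, the cotransporter of sodium, potassium and chloride of the kidney, had the highest moderated t (0.24 ± 0.11), at 4.18 to 7.05 units (median 4.84) in CA CON piglets, where pig 4 was the highest, and 3.94 to 4.47 (4.33) in SA CON piglets.

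Within the medium-chain diet, no member of CA piglets passed either (all genes 0%), and 2 members were higher (all genes 1.3%) and 2 lower (all genes 1.36%) at an unadjusted p under 0.05. SLC16A9, of the monocarboxylate carrier family, had 18.2 to 38.2 units (median 23.9) in CA MCT piglets and 15.5 to 24.5 (18.5) in SA MCT piglets. The groups overlapped and the difference was 0.36 ± 0.16 (1.28-fold; adjusted p = 0.9998 by limma). SLC2A13, which carries myo-inositol with protons, had 74.3 to 90.2 units (median 79.5) in CA MCT piglets and 86.2 to 105.4 (91.4) in SA MCT piglets, a difference of -0.19 ± 0.08.

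**Figure D2:**
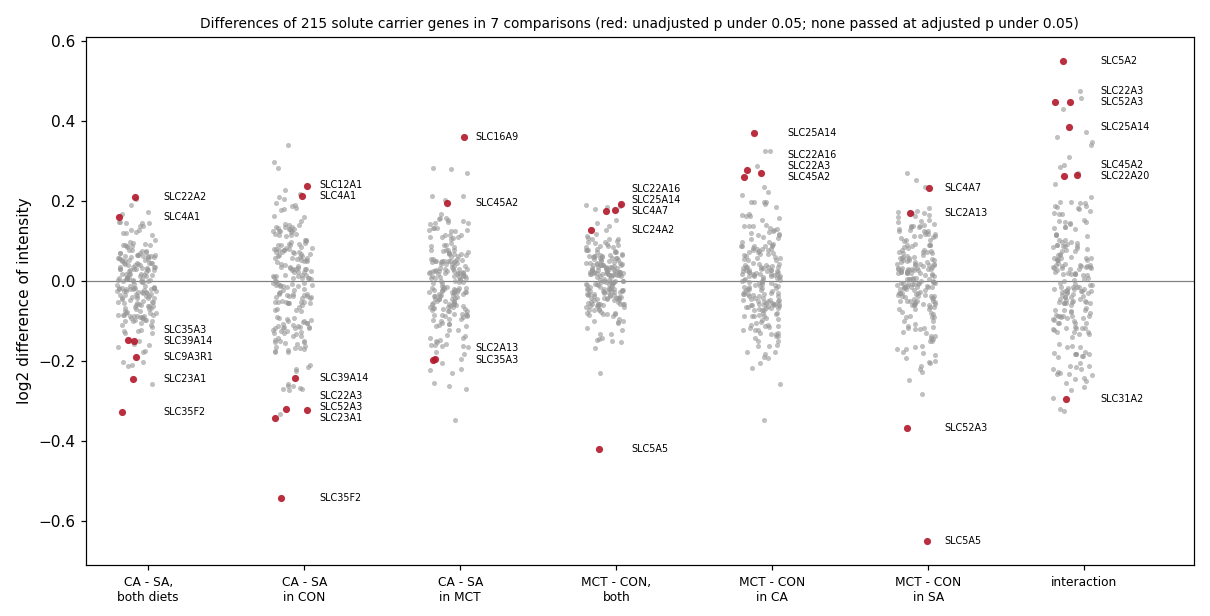
Log2 difference of each of the 215 solute carrier genes in the 7 comparisons (1 grey point per gene, red and named where the unadjusted limma p was under 0.05). No gene passed at an adjusted p under 0.05, and the lowest values were those of SLC5A5 for MCT against CON in SA piglets (-0.65) and SLC35F2 for CA against SA in CON piglets (-0.54).

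The diet gave no call either. In MCT piglets as compared to CON piglets over both associations no member was at an adjusted p under 0.05 (all genes 0%), and 4 members were higher (all genes 1.38%) and 1 was lower (all genes 0.965%) at an unadjusted p under 0.05. The 95% interval lay within 0.5 of 0 for 212 members (98.6%). The member that was lower was SLC5A5, the symporter that concentrates iodide in the thyroid and also in the gastric mucosa. It had 350.5 to 771.9 units (median 578) in CA MCT piglets and 473 to 776 (652) in CA CON piglets, and 249.9 to 912.4 (401) in SA MCT piglets and 376 to 917 (776) in SA CON piglets. In SA, 4 of the MCT piglets were below all CON piglets but 1, while pig 22 in the MCT group was second highest of the 12. The difference of MCT and CON was -0.42 ± 0.20 (0.747-fold; adjusted p = 0.9999 by limma) over both associations, and -0.56 without pigs 4, 10 and 22.

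Of the 4 members that were higher, SLC4A7, a sodium-bicarbonate cotransporter, had 68.3 to 93.2 units (median 85.0) in CA MCT piglets and 71.9 to 82.3 (75.9) in CA CON piglets, and 70.6 to 114.5 (77.9) in SA MCT piglets and 61.1 to 77.4 (69.8) in SA CON piglets. The difference was 0.18 ± 0.07, with 1 SA MCT piglet, pig 22, far above the rest, and 0.12 without pigs 4, 10 and 22. SLC22A16, a carnitine carrier, had the highest moderated t (0.19 ± 0.07) but was dim, at 4.05 to 7.85 units over all piglets, where pig 4 was the lowest and pig 10 the highest. Without pigs 4, 10 and 22 its difference was 0.12. The other members of the 4 were SLC25A14, a mitochondrial carrier of the uncoupling protein group (0.18 ± 0.08), and SLC24A2, an exchanger of sodium for calcium and potassium (0.13 ± 0.06). SLC24A2 was dim, at 7.28 to 10.6 units in SA MCT piglets, where pig 20 was the highest and the next was at 8.32.

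Within CA piglets no member was at an adjusted p under 0.05 (all genes 0%), and 4 members were higher in MCT (all genes 1.64%) and 0 were lower (all genes 1.35%) at an unadjusted p under 0.05. SLC25A14 had 16.4 to 27.1 units (median 17.8) in CA MCT piglets and 12.0 to 17.2 (14.8) in CA CON piglets, with little overlap. The highest was pig 10 and the lowest pig 4. The difference was 0.37 ± 0.12 (1.29-fold; adjusted p = 0.999 by limma), and 0.21 without pigs 4, 10 and 22. SLC45A2, known from melanosomes, had 14.2 to 16.9 units (median 15.3) in CA MCT piglets and 10.1 to 14.8 (13.1) in CA CON piglets, a difference of 0.26 ± 0.09, and 0.16 without those 3 piglets. SLC22A3 was 0.27 ± 0.12 higher in MCT, and here the value without them was larger, 0.34.

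Within SA piglets no member was at an adjusted p under 0.05 (all genes 0%), and 2 members were higher in MCT (all genes 1.21%) and 2 were lower (all genes 0.827%) at an unadjusted p under 0.05. The members that were lower were SLC5A5 (-0.65 ± 0.28, 0.638-fold) and SLC52A3 (-0.37 ± 0.13, 0.775-fold; adjusted p = 0.9997 for both by limma). SLC52A3 had 11.1 to 20.4 units (median 16.4) in SA MCT piglets and 16.8 to 23.9 (20.9) in SA CON piglets. The members that were higher were SLC4A7 (0.23 ± 0.10) and SLC2A13 (0.17 ± 0.08).

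**Figure D3:**
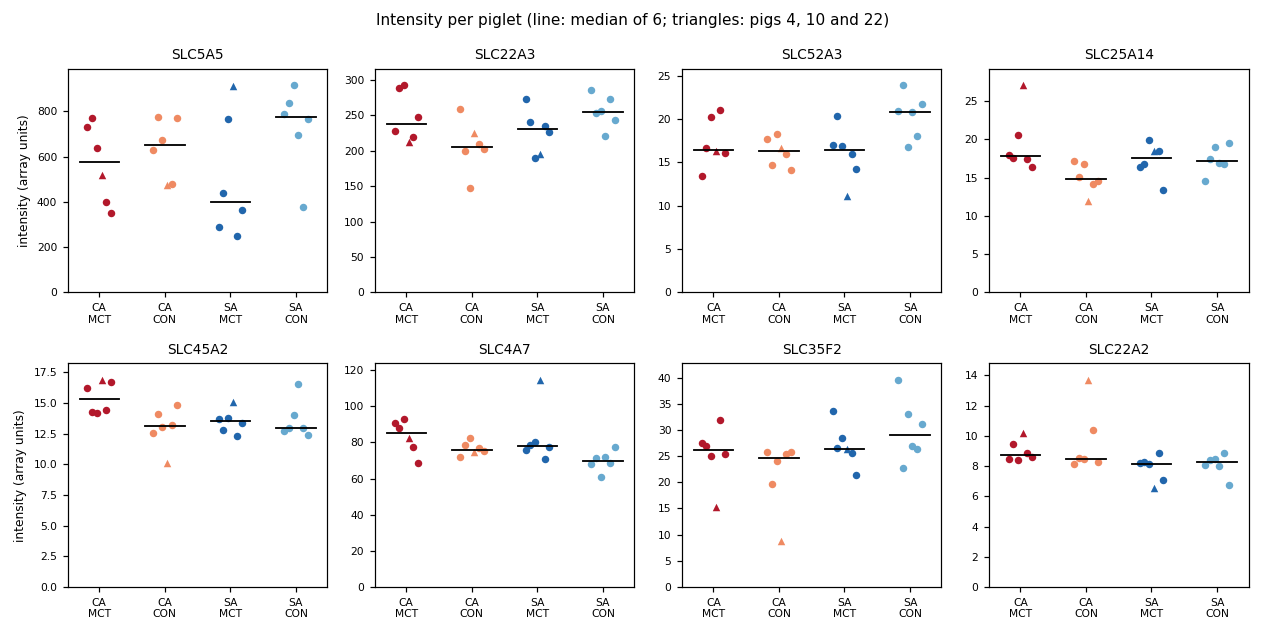
Intensity per piglet (array units, axis from 0) of 8 solute carrier genes with an unadjusted p under 0.05 in at least 1 comparison, by group with the median of 6 as a line and pigs 4, 10 and 22 as triangles. In SLC5A5 the SA MCT piglets spread from 249.9 to 912.4 units, and in SLC35F2 and SLC22A2 the piglet farthest from the rest in CA CON was pig 4.

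The interaction was the difference of MCT and CON in CA piglets minus that in SA piglets. No member was at an adjusted p under 0.05 (all genes 0%). At an unadjusted p under 0.05 there were 6 members with a higher value (all genes 1.28%) and 1 with a lower (all genes 1.25%), and the share of members with a higher value was 2.79%. For SLC22A3 it was 0.45 ± 0.16, for SLC52A3 0.45 ± 0.18 and for SLC25A14 0.39 ± 0.17 (adjusted p = 0.9999 for each by limma). In SLC22A3 the medians were 238 units in CA MCT and 206 in CA CON piglets, against 231 in SA MCT and 255 in SA CON piglets. In SLC52A3 SA CON stood apart at 20.9, with the other 3 medians at 16.3 to 16.5. The sodium-glucose cotransporter SLC5A2 had the largest value, 0.55 ± 0.25, with 18.4 to 26.0 units (median 19.8) in CA MCT, 9.51 to 23.8 (17.2) in CA CON, 10.2 to 21.8 (17.7) in SA MCT and 17.9 to 26.2 (18.8) in SA CON piglets. SLC31A2, of the copper carrier family, was the member with a lower value (-0.30 ± 0.13). The interaction was measured less closely than the other comparisons, with a median SE of the members of 0.16 against 0.08 over both diets or associations, and 133 members (61.9%) had an interval within 0.5 of 0.

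The carriers with known gastric roles were followed by a list of 59 genes, of which 29 were measured. The 6 for acid secretion and iodide gave differences of CA and SA of 0.07 ± 0.06 for SLC9A4, -0.02 ± 0.05 for SLC9A2, -0.05 ± 0.10 for SLC26A7, 0.07 ± 0.07 for SLC4A4, -0.09 ± 0.08 for SLC26A6 and 0.05 ± 0.20 for SLC5A5. The moderated t of these 6, which do not include SLC4A2, was between -1.16 and 1.29. For the diet, SLC9A4 gave -0.03 ± 0.06 and SLC26A7 0.03 ± 0.10. In the endocrine carriers, SLC18A1 gave 0.06 ± 0.10 and SLC22A3 -0.10 ± 0.08 for CA against SA, and 0.02 ± 0.10 and 0.05 ± 0.08 for MCT against CON. In the glucose carriers, SLC2A2 gave 0.06 ± 0.08 and SLC5A1 -0.26 ± 0.17 for CA against SA, and -0.03 ± 0.08 and 0.03 ± 0.17 for MCT against CON.

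The medium-chain diet supplies fatty acids that enter the mitochondria largely without the carnitine shuttle. Ketone bodies were not measured in these piglets. Of the 11 carriers listed for fatty acids and ketone bodies, 7 were measured and none was called. The monocarboxylate carrier SLC16A1 had 276 to 377 units (median 314) in CA MCT and 256 to 331 (314) in CA CON piglets, and 251 to 367 (332) in SA MCT and 269 to 417 (305) in SA CON piglets. The groups overlapped fully, with a difference of MCT and CON of 0.04 ± 0.08 (95% interval -0.13 to 0.21). The fatty acid transport protein SLC27A1 gave 0.08 ± 0.13, SLC27A2 -0.09 ± 0.08, SLC27A3 -0.04 ± 0.14 and SLC27A4 -0.06 ± 0.08. SLC27A2 was dim, with a mean of 6.73 units, below the 25th percentile of all genes (10.6). The mitochondrial citrate carrier SLC25A1 gave 0.03 ± 0.10 and SLC16A6, which exports ketone bodies from liver in zebrafish, 0.04 ± 0.08.

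When the members were counted by class, 26 of the 34 acid-base and inorganic ion carriers were higher in CA than in SA piglets over both diets, with a median difference of 0.05, while 19 of the 26 mitochondrial carriers and 12 of the 16 metal ion carriers were lower, with medians of -0.03 and -0.04. The direction was also related to the signal on the array, in all genes as in the members. Of the genes in the lowest quartile of signal 77.7% were higher in CA, and so were 41 of the 54 members there (75.9%), while in the third quartile it was 31.7% of the genes and 14 of the 50 members (28%). The acid-base and inorganic ion carriers had 14 members in the lowest quartile, all of them higher in CA, and 12 of 20 in the others. Without pigs 4, 10 and 22 the share in the lowest quartile was 49.7% of all genes and 46.3% of the members, and 10 of those 14 carriers were higher in CA. Without the 3 piglets 25 of the 34 acid-base and inorganic ion carriers were higher in CA, but the counts by quartile changed. Above the lowest quartile, in rising order of signal, they were 6 of 8, 3 of 6 and 3 of 6 with all piglets. Without the 3 piglets they were 7 of 8, 4 of 6 and 4 of 6. With array weights the count of the class was lower, as given below. With all piglets it was 26 of 34 within CON (median difference 0.09) and 20 of 34 within MCT (0.02). Of the mitochondrial carriers 8 of 26 were higher in CA without the 3 piglets, and of the metal ion carriers 5 of 16. The part of the signal in the directions of these classes was not tested.

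**Figure D4:**
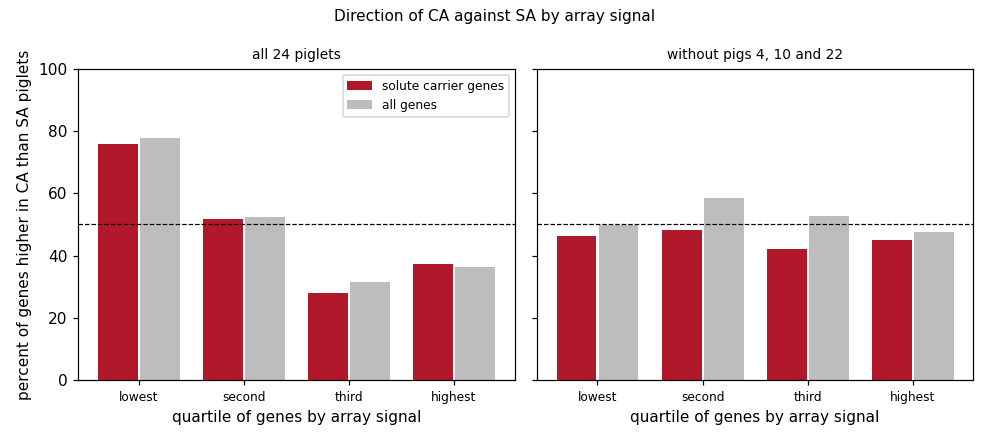
Percent of genes with a higher mean in CA than in SA piglets over both diets, in quartiles of all genes by array signal, for the solute carrier genes (red) and all genes (grey), with all 24 piglets and without pigs 4, 10 and 22. In the lowest quartile 75.9% of the members and 77.7% of all genes were higher in CA with all piglets, against 46.3% and 49.7% without the 3 piglets.

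Pig 4 showed the same relation to signal. Of the 54 members in the lowest quartile of signal 43 were above the CA CON median in pig 4, with a median deviation of 0.41 on the log2 scale, while of the 50 members in the third quartile 5 were above it and the median deviation was -0.37. In pig 10 the medians were 0.13 and -0.09. The part of these arrays in any single difference of a dim member was not tested apart from the values without them given above.

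SLC26A7 varied together with ATP4A, a subunit of the proton pump. Of the 9 pairs listed, 2 had both genes measured, and both were computed over 24 piglets on log2 deviations from the group means. SLC26A7 and the proton pump subunit ATP4A had a Pearson's r of 0.74 (permutation p = 3e-05, adjusted over both pairs 6e-05) and a Spearman's rho of 0.67 (permutation p = 0.00051, adjusted 0.00102). Without pigs 18 and 21, the 2 farthest from the median of SLC26A7, r was 0.58, and without pig 18 alone 0.64. SLC9A4 and ATP4A had an r of 0.6 (permutation p = 0.00333, adjusted 0.00333) and a rho of 0.44 (permutation p = 0.0319, adjusted 0.0319). Without pigs 10 and 18 that r was 0.28, and without pig 18 alone 0.32, so that the relation of SLC9A4 rests largely on 1 piglet. ATP4A was not correlated with other genes of the array, so neither pair was shown to be particular. Pig 18 had the lowest value of its group for 58 members, against 15 to 55 for the other SA CON piglets. The part of a shift of the whole sample in these correlations was not tested. In bulk mucosa, fewer cells of a type and less RNA per cell cannot be told apart. The summed intensity of the 5 measured parietal markers was 7636 to 9254 in CA MCT, 7748 to 9053 in CA CON, 8659 to 9315 in SA MCT and 7180 to 9636 in SA CON piglets. ATP4A and ATP4B, with means of 3555 and 2668, made up most of it. GIF, counted in it, ran from 389.5 (CA CON) to 2026 (SA CON). As it adds signals of different genes, the sum does not measure the number of parietal cells.

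**Figure D5:**
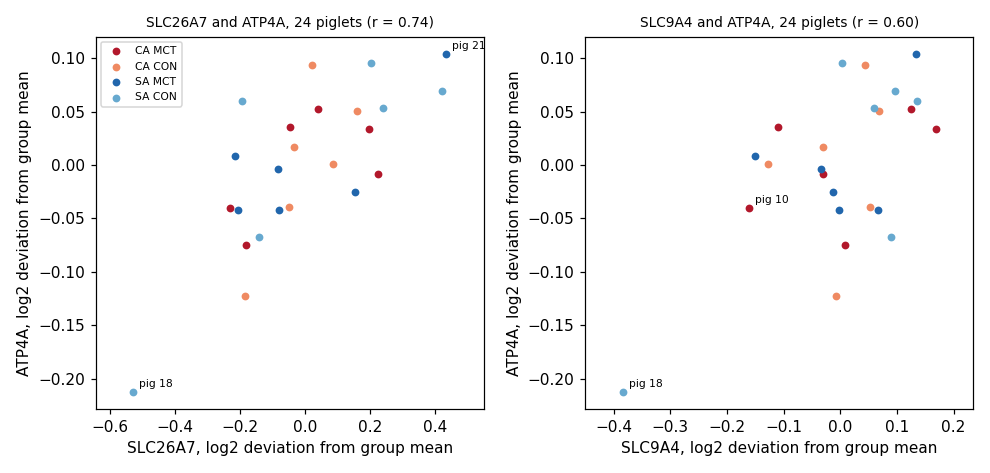
Deviation from the group mean (log2) of ATP4A against that of SLC26A7 (r of 0.74) and of SLC9A4 (r of 0.6), 1 point per piglet coloured by group, with the 2 piglets farthest from the median of the carrier named. Pig 18 (SA CON) was lowest in all 3 genes.

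Other genes of membrane transport gave no call either. Of 65 measured ion pumps, ABC transporters, aquaporins, carbonic anhydrases and accessory proteins, 0 were at an adjusted p under 0.05 in any of the 7 comparisons. At an unadjusted p under 0.05, 1 was higher and 1 lower in CA than in SA over both diets (all genes 1.76% and 2.37%), 2 were higher and 4 lower within CON (1.92% and 2.33%), and 1 was higher and 0 were lower within MCT (1.3% and 1.36%). In MCT against CON, 1 was higher and 1 lower over both associations (all genes 1.38% and 0.965%), 3 were higher and 0 lower within CA (1.64% and 1.35%), and 1 was higher and 3 lower within SA (1.21% and 0.827%). For the interaction 3 had a higher and 1 a lower value (1.28% and 1.25%).

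Of the members, 20 had more than 1 cluster. In SLC19A3, SLC22A7 and SLC23A1 the clusters held identical values, so that a second cluster adds no measurement. In SLC9A4 (r of 0.87) and SLC40A1 (0.96) the clusters moved together over the piglets, while in SLC15A3 (0.02), SLC25A29 (0.00), SLC39A5 (0.06) and SLC3A1 (-0.28) they did not, and the values of these 4 genes depend on which cluster is read. The correlation was also low in SLC2A2 (0.32), SLC25A47 (0.32) and SLC30A6 (0.39), and 0.56 to 0.70 in SLCO1A2, SLC5A1, SLC27A2 and SLCO6A1.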

How the data were processed

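The labels put 24 piglets in 4 groups of 6, with 1 Affymetrix Porcine Gene 1.1 ST array each. The deposited intensity values had been made by the authors with Robust Multichip Analysis, which corrects background, normalizes quantiles and summarises probes, and were linear. The design had foreseen log2 values, so they were transformed to log2 before the planned limma test. Of 27558 clusters, 11939 carried 1 symbol, 416 several and 15203 none in the table used, and the brightest cluster per symbol was kept. Columns not mapped to a piglet numbered 0.

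A model of the 4 group means was fitted to the 10882 genes (limma 3.58.1, R 4.3.3, 20 residual degrees of freedom), with moderated t tests of 7 contrasts and Benjamini-Hochberg adjustment over all genes, and was tested on simulated data. Correlations used 100000 permutations. Named were the 5 highest and 5 lowest members by moderated t in each comparison, any at an adjusted p under 0.05, the 10 brightest, the 10 most variable and the measured genes of a list of carriers with known roles, of which the text gives the leading ones. The members and lists were chosen with earlier results of these data known. Piglets of a pen or litter were taken as independent, and the number of arrays limits the precision. The paper states that the piglets came from fewer sows than piglets, with litters balanced over the groups. Littermates were therefore among the piglets, and the SEs, intervals and p-values take no account of this. Alternatives were another choice of cluster, a filter on dim clusters, array weights, renewed quantile normalization, an intensity trend, and leaving out piglets.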

Additional observations from a re-analysis of the deposited data

Results flagged for a closer look

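The 38 members looked at were the 10 brightest, the 10 most variable and those at an unadjusted p under 0.05 in any comparison. In these, 152 groups of 6 piglets were searched for a piglet far from the others of its group by Dixon's criterion, and 20 were found. Chance gives about 1 in 20 groups in genes not chosen for their spread, which is no measure for members chosen partly for it. Of these, 5 were pig 4, 2 pig 10, 4 pig 22 and 9 other piglets. In CA CON, pig 4 was high in SLC12A1 (7.05 units, next 4.92) and SLC28A2 (26.7, next 14.9), and low in SLC25A43 (22.8, next 58.0), SLC35F2 (8.73, next 19.7) and SLC9A2 (675.4, next 785.8). In CA MCT, pig 10 was high in SLC22A16 (7.85, next 6.27) and low in SLC35F2 (15.3, next 25.1), and pig 9 was high in SLC44A4 (1316, next 942.5).

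In SA MCT, pig 22 was high in SLC12A1 (5.72, next 4.68) and SLC4A7 (114.5, next 80.3), and low in SLC25A43 (41.1, next 75.4) and SLCO2A1 (418.8, next 513.9). Pig 20 was high in SLC24A2 (10.6, next 8.32) and pig 23 low in SLC9A3R2 (550.1, next 680.8). In SA CON, pig 18 was low in SLC9A4 (910.3, next 1190), SLC25A3 (799.9, next 947.5) and SLC22A2 (6.77, next 8.04). Pig 14 was high in SLC35F1 (45.7, next 18.4), and pig 17 was high in SLC5A2 (26.2, next 20.0) and low in SLC5A5 (375.9, next 694.3). No reason for any of these values was tested.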

How the results depend on the processing

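No paired or blocked analysis was possible because the labels do not name the litter of a piglet. No member reached an adjusted p under 0.05 by limma in any alternative, and the lowest adjusted p of a member over all of them was 0.395. Of the 96 values of named members, the direction changed in 2 with renewed quantile normalization (SLC9A2 for CA against SA, 0.00431, and SLC18A1 for MCT against CON, -0.0103), in 3 with array weights (for MCT against CON, SLC5A1 -0.031, SLC16A1 -0.0298 and SLC27A1 -0.0143) and in 3 without pigs 4, 10 and 22 (SLC9A2 for CA against SA 0.00288, SLC5A1 and SLC16A1 for MCT against CON -0.00595 and -0.0279). All lay near 0 and the cause was not tested.

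The count of members at an unadjusted p under 0.05 moved by over 1.5 times with array weights to 13 for CA against SA, 12 within CON and 10 within MCT, and to 7 for MCT against CON within CA and 9 within SA (all genes 7.55%, 6.27%, 5.66%, 3.68% and 4.67%). Without pigs 4, 10 and 22 it was 12 for CA against SA within CON and 10 for MCT against CON within SA (all genes 6.26% and 5.04%), with renewed normalization 2 for CA against SA within MCT (2.72%), and without the dimmest 40% of clusters, which left 135 members, 3 for MCT against CON, 2 within CA and 4 for the interaction (2.2%, 2.62% and 2.7%). Leaving out 1 piglet at a time, the counts ran from 2 (without pig 15) to 11 (without pig 17 or 22) for CA against SA, 5 (pig 4) to 14 (pig 3) within CON and 1 (pig 7, 10 or 24) to 6 (pig 4 or 22) within MCT, 2 (pig 10 or 13) to 7 (pig 4) for MCT against CON, 3 (pig 9) to 8 (pig 10) within CA and 3 to 8 (pig 18) within SA, and 3 (pig 24) to 7 for the interaction. For the counts with 1 piglet left out the share of all genes was not computed. They therefore cannot be set against a background. Without pigs 4, 10 and 22, r was 0.73 for SLC26A7 and 0.64 for SLC9A4 with ATP4A. The counts by class under other settings were added after seeing the data: 26 of 34 acid-base and inorganic ion carriers higher in CA became 21 with array weights and 25 without the 3 piglets, and 9 of 27 nucleoside and nucleotide sugar carriers higher in MCT became 14 without them.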
